A study of Mus musculus with 17 samples.

Results

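Olfactory receptors are the family of odorant-binding G protein-coupled receptors encoded by the mouse genes with Olfr symbols, and 13 of the 1027 such genes measured here gave a mean intensity of 150 or more in at least 1 of 6 groups of sorted medullary thymic epithelial cells. A gene entered through the probe sets that the platform annotation gives this gene alone, and where there were several the one brightest on average across all 17 arrays was to stand for it. Each of the 13 genes had a single probe set of this kind. The levels themselves chose the genes, so their levels are described without a test. The 13 genes were Olfr1136 and Olfr1174 on chromosome 2, Olfr157 and Olfr71 on chromosome 4, Olfr678 on chromosome 7, Olfr920 on chromosome 9, Olfr767 on chromosome 10, Olfr314, Olfr316 and Olfr401 on chromosome 11, Olfr284 on chromosome 15, and Olfr239 and Olfr91 on chromosome 17. Annotation gives 12 of them as protein coding and Olfr1174 as a pseudogene.

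RNA of medullary epithelial cells, sorted from the mouse thymus as negative for CD45 and Ly51 and high for MHC class II, was hybridized to whole-transcript Affymetrix Mouse Gene 1.0 ST arrays, 1 array per sample. All mice were C57BL/6 of mixed sex and carried Adig, an Igrp-GFP reporter driven by Aire, so GFP+ cells are those in which the Aire promoter was active. Adults aged 5 weeks gave 3 samples of Aire-knockout (KO) GFP+ cells, 3 of wild-type (WT) GFP+ cells and 3 of WT GFP- cells. Perinates, 3 days old by the sample labels and 0 to 3 days old by the design text, gave 3 samples of KO GFP+ cells, 3 of WT GFP+ cells and 2 of WT GFP- cells. GFP- cells of KO mice were not analysed here. Nothing says that replicates came from separate animals or how many thymi were pooled, so every p-value measures the spread between these samples only, which may be technical. A lower signal in sorted bulk cells can come from fewer cells that carry a transcript or from less RNA in each of them, and these cannot be told apart here.

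In the nose, each olfactory sensory neuron transcribes a single receptor gene out of the whole family, usually from a single allele, and the receptor signals through the G protein subunit Gnal, the adenylyl cyclase Adcy3 and a cyclic-nucleotide-gated channel that includes Cnga2. Medullary epithelial cells transcribe many genes of other organs in scattered cells and show the products to developing T cells, and Aire is the regulator behind much of this ectopic transcription. Receptor genes lie in clusters on many chromosomes, most of them with an intronless coding exon. Their coding sequences resemble each other, so a probe set can read a related gene as well as its own, and this was not tested.

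The signal of Aire did not check the KO label. Its probe set averaged 4927 in adult KO GFP+ cells and 5097 in adult WT GFP+ cells (log2 difference -0.03 ± 0.21 SE, Benjamini-Hochberg adjusted p = 0.931 in limma, where an adjusted p under 0.05 counts as a call). In perinates it averaged 5272 in KO GFP+ cells and 4773 in WT GFP+ cells (log2 difference 0.13 ± 0.21, adjusted p = 0.661). Where its probes lie relative to the deleted stretch is not given in the sources used here. All 10 listed medullary epithelial markers, among them Epcam and Krt5, stood at 150 or more in 5 of the 6 groups, and 9 of 10 did in perinate WT GFP- cells. Perinate KO arrays 2 and 3 stood apart from the rest, since the Y-linked Uty read 19.2 and 16.1 on them, against 169 to 366 on the other 15 arrays. The X-linked Xist read 5203 and 5167 on them, against 2104 to 4509 on the other 15. The labels give mixed sex for all mice, and a part of sex in these comparisons was not tested. Without them, the comparison of KO with WT in perinate GFP+ cells called 1171 of 13842 genes, against 3664 with all arrays. Calls of the 13 genes that rest on perinate KO cells are given with and without both arrays, and so are those of the other genes named, where leaving them out was chosen after seeing the data. Array 1 is then alone in its group, and its spread is taken to equal that of the remaining groups.

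The threshold of 150 lies near the middle of an array, since the median over all probe sets ran from 145 to 157 over the arrays. In all, 61.0% of the 19752 genes with a single symbol reached it in at least 1 group, against 1.27% of the olfactory receptor genes. The median receptor gene of an array had an intensity of 21.0 to 24.3. By their highest group mean, 509 receptor genes stayed under 25, 338 lay from 25 to under 50, 142 from 50 to under 100 and 25 from 100 to under 150. Other chemosensory families were low too: none of 118 type 1 and none of 49 type 2 vomeronasal receptors and none of 13 trace amine receptors reached 150, while 5 of 37 taste receptors did. Signals of different probe sets depend on their probes, so these levels place genes on the scale of the rule and do not measure relative amounts of RNA.

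**Figure D1:**
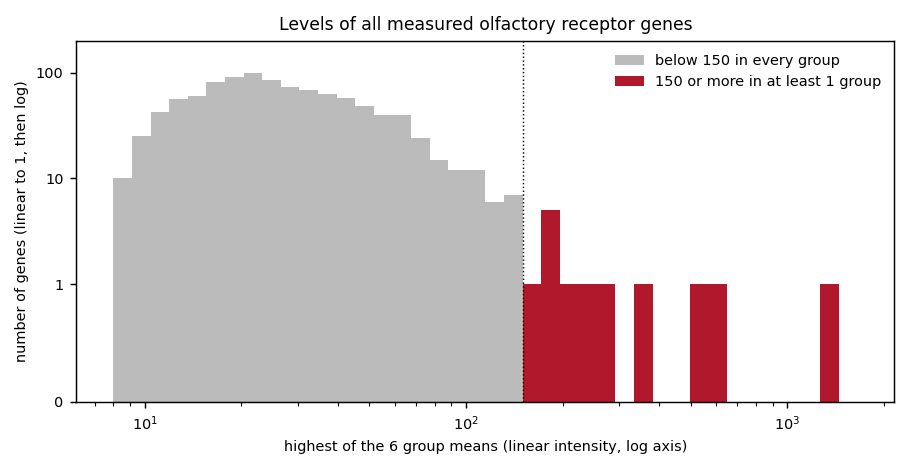
Number of olfactory receptor genes (linear up to 1, then log axis) by the highest of their 6 group means (linear intensity, log axis). Grey bars are the 1014 genes below 150 in every group and red bars the 13 genes at 150 or more, with the dotted line at 150.

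The 13 genes did not clear the threshold in the same way. Olfr1174, Olfr767 and Olfr239 stood at 150 or more in all 6 groups, Olfr314 and Olfr71 in 5, and Olfr920, Olfr284, Olfr678 and Olfr401 in 4. Olfr1136 did so in 3 groups, and Olfr157, Olfr316 and Olfr91 in 1 group each. The mean over all 17 arrays, which does not look at groups, was 150 or more for 10 of the 13, all but Olfr157, Olfr316 and Olfr91. Among adult groups, 10 receptor genes reached 150 with KO GFP+, 6 with WT GFP+ and 6 with WT GFP-. Among perinate groups 9 did with KO GFP+, 11 with WT GFP+ and 8 with WT GFP-. Just inside the threshold, the highest group mean was 182 for Olfr401, 172 for Olfr316 and 158 for Olfr91, each in perinate WT GFP+ cells. Just outside it were Olfr461 at 149 in adult WT GFP- cells, Olfr1395 at 146 in perinate WT GFP- cells and Olfr1148 at 140 in adult WT GFP- cells. Olfr461, on chromosome 6, averaged 26.5 with GFP and 149 without in adult WT mice, and 30.3 with GFP and 50.7 without in perinates.

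**Figure D2:**
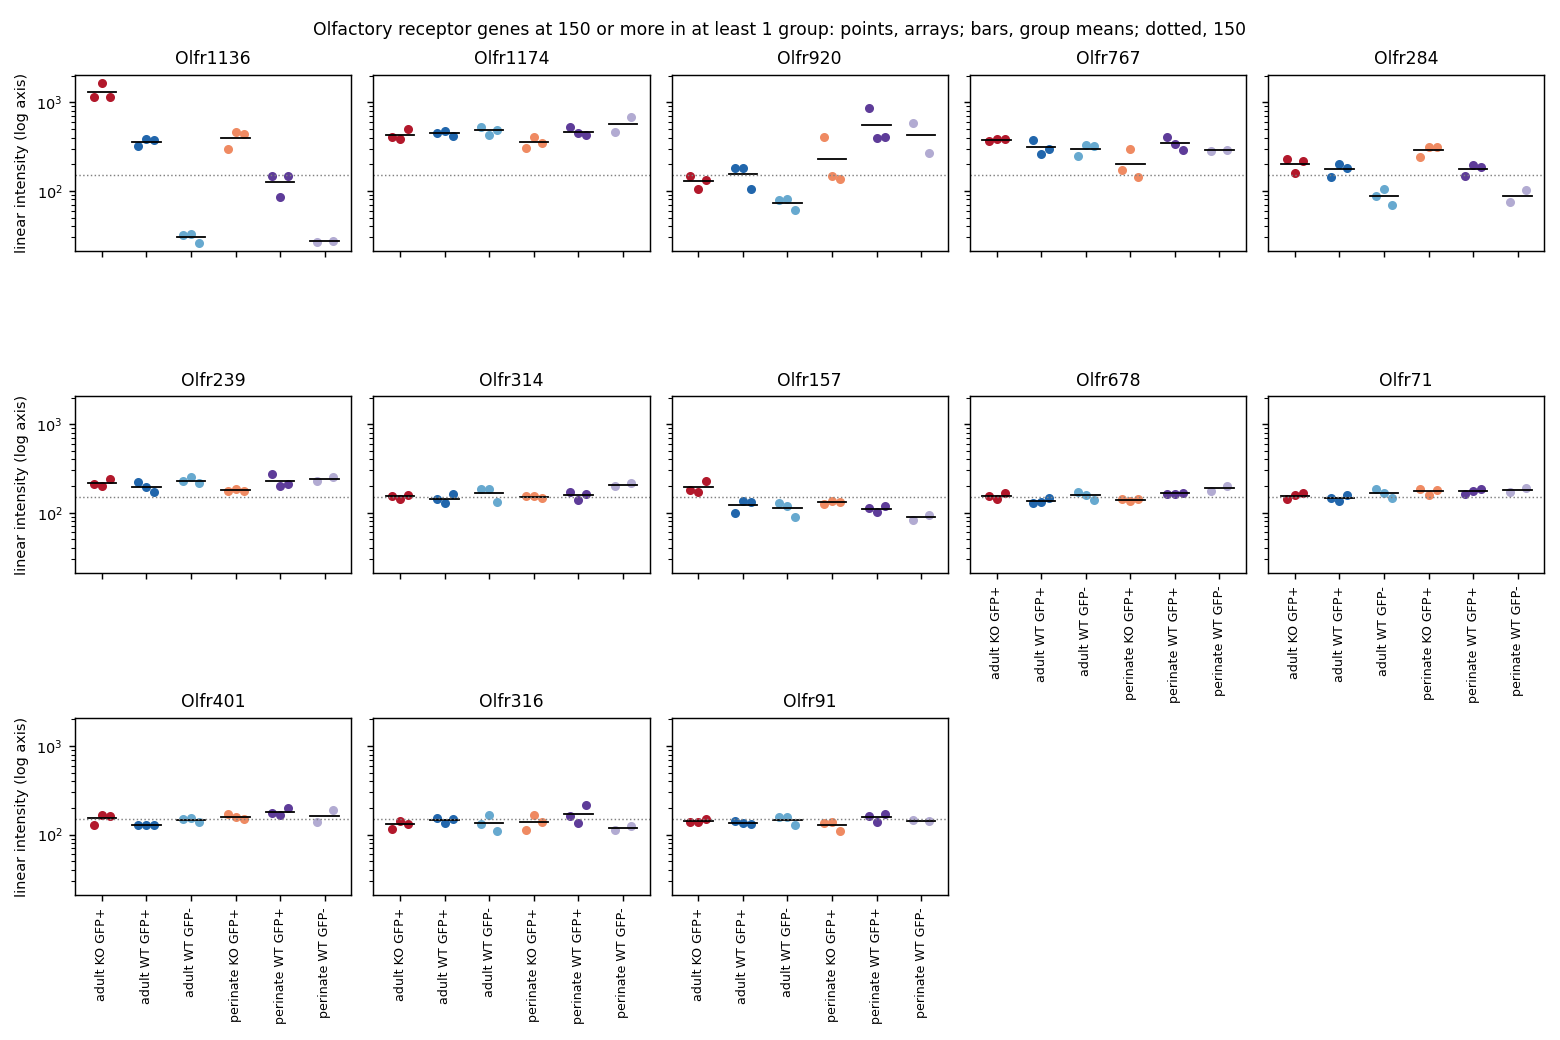
Linear intensity (log axis) of each of the 13 genes on each array, with a point per array, a bar at each group mean and a dotted line at 150. Olfr1136 runs from 25.6 to 1675 over the arrays, and Olfr71, for example, from 137 to 191.

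Sequence around the annotated start was held for 8 of the 13 genes in the RefSeq promoter table (GRCm38.p6), as windows of 250 bases before to 50 bases after the start. For Olfr1174, Olfr284, Olfr239, Olfr157 and Olfr91 none was used. Olfr1136 and Olfr920 are shown because they are the genes whose signal differed most between groups, and Olfr767 and Olfr401 because their windows hold a TATA box sequence. The windows are written on the strand of the gene, with TATAAA in capitals where it occurs. They lie at chr2:87693898-87694197 on the minus strand (Olfr1136), chr9:38752546-38752845 on the plus strand (Olfr920), chr10:129079912-129080211 on the minus strand (Olfr767) and chr11:74121041-74121340 on the plus strand (Olfr401).
Olfr1136: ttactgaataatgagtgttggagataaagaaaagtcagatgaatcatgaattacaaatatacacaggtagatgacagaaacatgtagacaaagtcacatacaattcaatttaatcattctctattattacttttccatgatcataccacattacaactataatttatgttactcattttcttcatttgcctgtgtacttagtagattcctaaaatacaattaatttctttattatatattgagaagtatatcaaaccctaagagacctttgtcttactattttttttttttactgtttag
Olfr920: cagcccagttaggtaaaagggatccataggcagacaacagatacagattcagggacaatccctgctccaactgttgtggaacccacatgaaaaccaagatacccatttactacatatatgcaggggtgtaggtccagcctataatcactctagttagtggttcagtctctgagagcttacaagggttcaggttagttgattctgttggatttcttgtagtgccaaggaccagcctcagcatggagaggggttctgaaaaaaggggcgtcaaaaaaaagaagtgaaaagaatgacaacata
Olfr767: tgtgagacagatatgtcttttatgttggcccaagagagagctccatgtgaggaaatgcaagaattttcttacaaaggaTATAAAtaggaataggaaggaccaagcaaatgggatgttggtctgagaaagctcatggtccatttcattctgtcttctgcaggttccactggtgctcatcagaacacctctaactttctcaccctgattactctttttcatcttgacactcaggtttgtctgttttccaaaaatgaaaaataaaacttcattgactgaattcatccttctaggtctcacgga
Olfr401: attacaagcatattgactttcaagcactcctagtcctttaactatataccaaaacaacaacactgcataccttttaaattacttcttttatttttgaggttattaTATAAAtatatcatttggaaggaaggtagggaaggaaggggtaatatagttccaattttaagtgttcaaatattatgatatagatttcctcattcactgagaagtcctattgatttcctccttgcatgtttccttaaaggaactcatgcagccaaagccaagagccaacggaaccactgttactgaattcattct

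In 5 of the 8 windows the annotated start is an ATG, so that there the window describes the bases upstream of the coding sequence. That was not so for Olfr1136, Olfr920 and Olfr314. Motifs were searched on both strands of all 8 windows. TATAAA was found in 4 of them, those of Olfr767, Olfr401, Olfr678 and Olfr316, against 41.3% of the 870 windows of measured receptor genes and 13.6% of all 32851 windows in the table. The homeodomain core TAATTA was in none of the 8, in 18.4% of receptor windows and in 5.29% of all windows. The palindrome bound by Ebf factors, which is TCCCNNGG followed directly by GA, was in none of the 8, in 0.460% of receptor windows and in 0.904% of all. TCCCNNGG alone, which lies within the palindrome, occurred only in the window of Olfr71 among the 8, as TCCCAAGG, and in 9.89% of receptor windows and 22.6% of all.

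Olfr1136 followed both the reporter and the Aire genotype. Its intensity was 1150, 1675 and 1148 on the adult KO GFP+ arrays, 320, 382 and 376 on the adult WT GFP+ arrays and 31.6, 32.9 and 25.6 on the adult WT GFP- arrays. In perinates it was 295, 468 and 439 in KO GFP+ cells, 148, 84.3 and 148 in WT GFP+ cells and 26.7 and 27.2 in WT GFP- cells. All KO arrays lay above all WT GFP+ arrays of the same age, and all GFP+ arrays above all GFP- arrays, with no overlap. On the scale of each array the gene stood at the 93.4th percentile of all genes in adult KO GFP+ cells on average, at the 71.7th in adult WT GFP+ cells and at the 10.2th in adult WT GFP- cells.

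In the linear model, Olfr1136 was 3.64-fold higher in adult KO than in adult WT GFP+ cells (log2 difference 1.86 ± 0.22, adjusted p = 5.41e-06). In perinates it was 3.20-fold higher in KO than in WT GFP+ cells (1.68 ± 0.22, adjusted p = 2.13e-05). Without perinate KO arrays 2 and 3 that log2 difference was 1.26 (adjusted p = 0.0114). A difference of the KO effect between the ages did not pass the test (-0.19 ± 0.30, adjusted p = 0.789). GFP+ cells exceeded GFP- cells at least 11.99-fold in adults (fitted log2 difference 3.58 ± 0.22, adjusted p = 4.70e-09) and at least 4.55-fold in perinates (2.19 ± 0.24, adjusted p = 1.45e-06). Both are lower bounds, since the GFP- signals lay only a little above the median receptor gene of their arrays. Olfr1136 reached the threshold in GFP+ groups only, and in perinates in KO cells only, so its entry was not independent of these comparisons. Its mean over all 17 arrays, 399, also reached the threshold, but every GFP- array lay far below it. That mean is therefore not independent of the reporter comparisons either, and their p-values use values that helped to choose the gene. The fitted differences differed by -1.40 ± 0.32 between the ages (perinate minus adult, adjusted p = 0.00561). With GFP- signals that low, this does not give the difference in size of the reporter effect. In GFP+ cells the adult level was the higher: perinate minus adult was -1.54 ± 0.22 in WT (adjusted p = 0.000131) and -1.73 ± 0.22 in KO (adjusted p = 3.46e-05). Without perinate KO arrays 2 and 3 the KO value was -2.14 (adjusted p = 0.000319). In GFP- cells, where the signal was near the bottom of the array at both ages, it was -0.15 ± 0.24 (adjusted p = 0.648). The order of the groups was adult KO GFP+, perinate KO GFP+, adult WT GFP+, perinate WT GFP+, adult WT GFP- and perinate WT GFP-, with overlapping ranges between the second and the third and between the last pair.

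Olfr920 was higher in perinates than in adults in WT cells. Its intensity was 148, 106 and 134 in adult KO GFP+ cells, 184, 181 and 106 in adult WT GFP+ cells and 79.6, 80.3 and 60.2 in adult WT GFP- cells. In perinates it was 404, 146 and 135 in KO GFP+ cells, 855, 395 and 405 in WT GFP+ cells and 584 and 272 in WT GFP- cells. Every perinate WT array lay above every adult array, whereas perinate KO arrays 2 and 3 lay among the adult ones. Perinate minus adult was 1.76 ± 0.39 in WT GFP+ cells (adjusted p = 0.00430) and 2.45 ± 0.43 in WT GFP- cells (adjusted p = 0.000206), which are 3.39-fold and 5.47-fold. In KO GFP+ cells it was 0.64 ± 0.39 (adjusted p = 0.249), and 1.65 (adjusted p = 0.0256) without perinate KO arrays 2 and 3.

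For Olfr920 the call of a knockout difference in perinates was lost when any of 3 single arrays was left out, while its sign stayed. KO minus WT was -1.37 ± 0.39 in perinate GFP+ cells (adjusted p = 0.0160), although KO array 1, at 404, overlapped the WT arrays. It did not pass without WT GFP+ array 5 (log2 difference -1.004, adjusted p = 0.0939), without KO array 2 (-1.14, adjusted p = 0.0797) or without KO array 3 (-1.09, adjusted p = 0.0845). Without KO arrays 2 and 3 it was -0.35 (adjusted p = 0.690). In adults KO minus WT was -0.24 ± 0.39 (adjusted p = 0.710). A difference of the KO effect between the ages did not pass the test (perinate minus adult, -1.13 ± 0.55, adjusted p = 0.305). GFP+ cells exceeded GFP- cells in adults, with no overlap of the groups (1.06 ± 0.39, adjusted p = 0.0349), a call that was lost in 5 of the 6 fits that left out 1 of these arrays. In perinates GFP+ minus GFP- was 0.37 ± 0.43 (adjusted p = 0.518).

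Olfr284 was higher in GFP+ cells at both ages. It had 142, 200 and 183 in adult WT GFP+ cells, against 87.1, 104 and 68.7 in adult WT GFP- cells. In perinate WT cells it had 147, 195 and 187 with GFP, against 74.4 and 101 without. Neither pair of groups overlapped, and the differences were 1.02 ± 0.19 in adults (adjusted p = 0.000358) and 1.01 ± 0.21 in perinates (adjusted p = 0.00100), both about 2-fold. Olfr284 reached the threshold in the 4 GFP+ groups only, so its entry was not independent of this comparison. Its mean over all 17 arrays, 174, also reached the threshold, but every GFP- array lay below 150. That mean is therefore not independent of this comparison either, and the p-values use values that helped to choose the gene. In KO GFP+ cells it read 232, 160 and 220 in adults and 242, 312 and 311 in perinates. KO minus WT was 0.22 ± 0.19 in adults (adjusted p = 0.467) and 0.71 ± 0.19 in perinates (adjusted p = 0.0114). The perinate value did not pass without WT GFP+ array 5 (0.0633), without KO array 2 (0.0510) or without KO arrays 2 and 3 (0.338).

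Olfr767 was above 150 on 16 of 17 arrays and lowest in perinate KO cells. It had 365, 389 and 381 in adult KO GFP+ cells and 373, 264 and 297 in adult WT GFP+ cells. In perinates it had 172, 295 and 142 in KO GFP+ cells and 401, 341 and 288 in WT GFP+ cells. Within the knockout, perinates were lower than adults on every array (-0.97 ± 0.21, adjusted p = 0.00308), and -1.14 without KO arrays 2 and 3 (adjusted p = 0.00326). KO minus WT was -0.82 ± 0.21 in perinates (adjusted p = 0.00921), with KO array 2 inside the WT range, and did not pass without KO array 3 (adjusted p = 0.0597), without WT GFP+ array 5 (log2 difference -0.70) or with array weights (adjusted p = 0.0613). Without KO arrays 2 and 3 it was -0.98 (adjusted p = 0.00923). The GFP- arrays of Olfr767 read between 246 and 334 for adults, and 283 and 291 for perinates.

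Olfr157 reached 150 only in adult KO GFP+ cells, so its difference there is a description. It had 179, 174 and 231 in adult KO GFP+ cells, against 101, 137 and 132 in adult WT GFP+ cells. In perinates it had 124, 136 and 133 in KO GFP+ cells, against 112, 102 and 118 in WT GFP+ cells. KO arrays lay above WT arrays at both ages. The mean log2 difference between KO and WT was 0.66 in adults and 0.24 in perinates.

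Olfr401 and Olfr678 were higher in perinate than in adult WT GFP+ cells. Olfr401 had 176, 168 and 201 in perinate WT GFP+ cells, against 128, 127 and 130 in adult WT GFP+ cells (perinate minus adult, 0.50 ± 0.13, adjusted p = 0.00932). Olfr678 had 163, 163 and 169 in perinate WT GFP+ cells, against 128, 131 and 146 in adult WT GFP+ cells (0.29 ± 0.10, adjusted p = 0.0486). The groups of neither gene overlapped, and the call of Olfr678 was lost in 8 of 12 alternatives. Olfr314 had 173, 141 and 163 in perinate WT GFP+ cells, against 202 and 214 in perinate WT GFP- cells, and this difference of -0.39 ± 0.14 (adjusted p = 0.0362) was lost in 5 of 10 alternatives.

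The remaining 5 genes passed in none of the 9 comparisons. The pseudogene Olfr1174 ran from 305 to 677 over the 17 arrays with a median of 449, and its lowest group was perinate KO GFP+. Olfr239 ran from 174 to 271, Olfr71 from 137 to 191, Olfr316 from 109 to 216 and Olfr91 from 109 to 172. In perinate GFP+ cells all KO arrays lay below all WT arrays for Olfr1174 (305, 410 and 347, against 530, 449 and 428), Olfr239 and Olfr678, and this held for 18.2% of all genes tested. Their differences were -0.41 ± 0.15 (adjusted p = 0.0558), -0.34 ± 0.12 (adjusted p = 0.0539) and -0.24 ± 0.10 (adjusted p = 0.0908). The group means of Olfr71 spanned 1.23-fold and those of Olfr91 1.23-fold, against at least 49.1-fold for Olfr1136 and 7.52-fold for Olfr920. Olfr314 overlaps Fam183b in the annotation, and Olfr91 overlaps Olfr92, Gm41579 and Gm19807, so their probe sets may read those genes too, which was not tested.

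**Figure D3:**
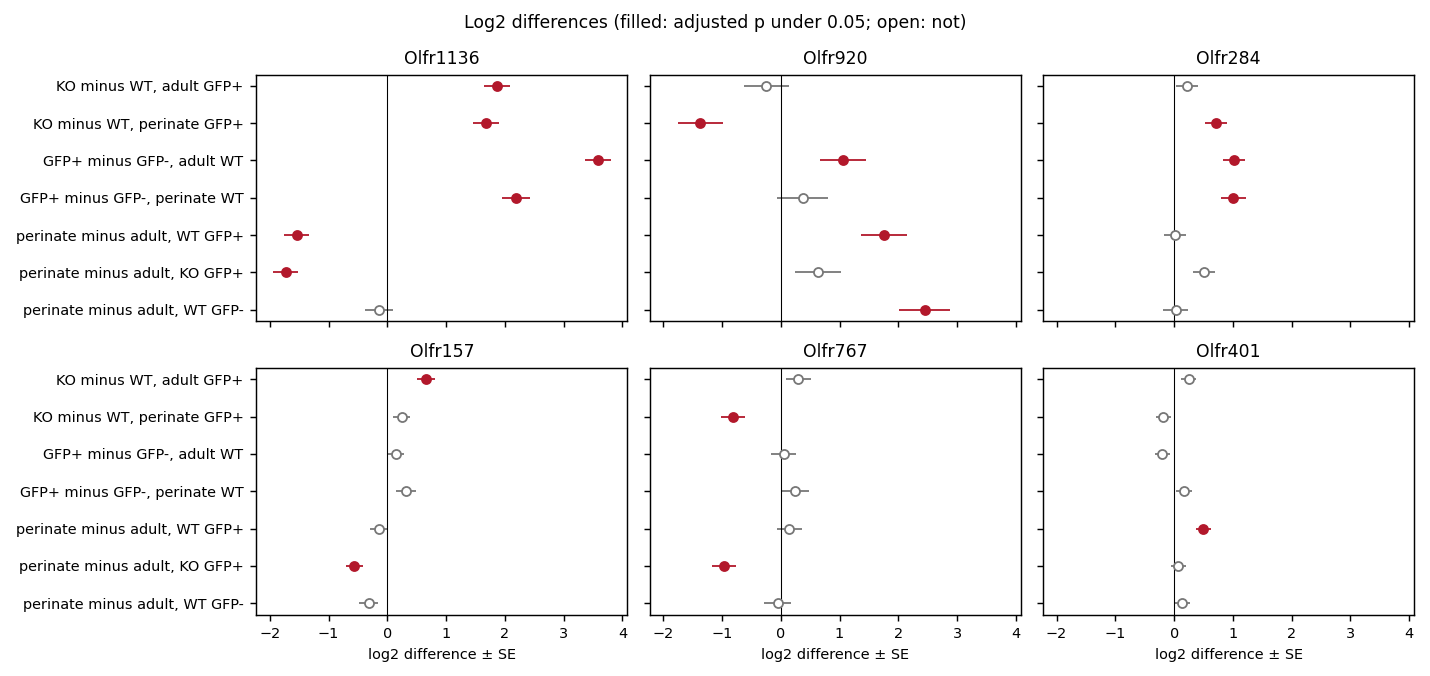
Log2 differences with their standard errors for 6 of the genes in 7 comparisons, as named on the vertical axis. Filled points have an adjusted p under 0.05 in limma. Olfr1136 lies to the right of 0 for genotype and reporter and to the left for age in GFP+ cells, and Olfr920 lies to the right for age in WT cells. The points of Olfr157 in adult KO cells are a description, since that group alone brought it over the threshold.

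Counted over the 13 genes, all of which passed the filter on dim probe sets, calls numbered 0 to 4 in each of the 9 comparisons. These counts are descriptions, since the genes were chosen by level, and no difference from the share among all genes was tested. For KO against WT, 2 of 13 were higher and none lower in adult GFP+ cells, where 19.9% of all 13842 genes tested were called, 9.06% higher and 10.8% lower. Olfr157, called in adults, is not among the 10 genes chosen without regard to groups. In perinate GFP+ cells 2 were higher and 2 lower, where 26.5% of all genes were called, 13.5% higher and 13.0% lower. For the difference of these KO effects between ages limma called 0 of 13, and 5 had an unadjusted p under 0.05, all of them with the lower KO effect in perinates. Among all genes 17.3% had such an unadjusted p, with 7.71% of all genes having it and the lower effect in perinates, and 1.21% were called, 0.722% higher and 0.484% lower. For GFP+ against GFP- cells, 3 were higher and none lower in adults, where 44.9% of all genes were called, 24.7% higher and 20.1% lower. In perinates 2 were higher and 1 lower, where 43.5% were called, 23.0% higher and 20.5% lower. The effect was lower in perinates than in adults for 1 gene, where 20.0% of all genes differed, 10.7% higher and 9.28% lower. For perinates against adults, 3 were higher and 1 lower in WT GFP+ cells, where 22.2% of all genes were called, 8.52% higher and 13.6% lower. None was higher and 3 were lower in KO GFP+ cells, where 26.0% were called, 13.4% higher and 12.7% lower. One of these was Olfr157, which adult KO GFP+ cells alone brought over the threshold, so that its fall of 0.56 is a description. Its call was lost without adult KO array 3, where the log2 difference was -0.43. Without perinate KO arrays 2 and 3 the log2 difference was -0.64. In WT GFP- cells 1 was higher and none lower, where 46.4% were called, 22.2% higher and 24.2% lower. The median log2 difference of the 13 genes was 0.14 for KO against WT in adults and -0.24 in perinates, against 0.06 and 0.09 over all genes tested.

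All 1027 receptor genes were also fitted with no filter on dim probe sets. Most of the family lay under 50 in every group, and no difference between its share of calls and that of all genes was tested. KO against WT gave 36 higher and 29 lower receptor genes in adult GFP+ cells, which is 6.33% of the family, against 18.6% of all genes. In perinate GFP+ cells it gave 8 higher and 23 lower, or 3.02%, against 24.4%. The fit without perinate KO arrays 2 and 3 gave 9 higher and 8 lower, or 1.66%, against 8.65%. GFP+ against GFP- cells gave 28 higher and 72 lower in adults, or 9.74%, against 36.6%, and 12 higher and 21 lower in perinates, or 3.21%, against 34.1%. Perinates against adults gave 26 higher and 10 lower in WT GFP+ cells, 4 higher and 13 lower in KO GFP+ cells and 14 higher and 11 lower in WT GFP- cells. These shares were 3.51%, 1.66% and 2.43% of the family, against 17.5%, 18.4% and 35.4% of all genes. For KO cells the fit without those 2 arrays gave 11 higher and 8 lower, or 1.85%, against 9.71%.

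Markers of other cells moved with some of these comparisons, and their part in the receptor results was not tested. For KO against WT, 19.9% of all genes were called in adults and 26.5% in perinates. For GFP+ against GFP- cells the shares were 44.9% in adults and 43.5% in perinates. For perinates against adults they were 22.2% in WT GFP+, 26.0% in KO GFP+ and 46.4% in WT GFP- cells. No difference of the marker counts below from these shares was tested. In adult GFP+ cells the 8 listed dendritic cell and macrophage markers summed to 575 to 675 in KO, against 1074 to 1159 in WT, and 6 of the 6 tested fell. In perinate GFP+ cells they summed to 517 to 585 in KO, against 804 to 904 in WT, and 5 of 6 fell. In GFP- cells they summed to 539 to 542 in perinates and 944 to 1169 in adults, and GFP+ cells had 4 of 6 higher and 1 lower in adults and 5 of 6 higher in perinates. The 9 fibroblast and endothelium markers summed to 4563 to 4957 in adult KO, against 2944 to 3320 in adult WT GFP+ cells, with 2 higher and 2 lower of 8 tested. Dcn alone averaged 3394 in KO and 1579 in WT, whereas Col1a1 averaged 215 and 285 and Pdgfrb 354 and 594. The sums therefore do not describe the list as a whole. Tuft cell markers were lower in GFP+ cells for 6 of 6 genes at both ages, with sums of 857 to 1073 in adult WT GFP+ cells against 6363 to 9710 in adult WT GFP- cells. In perinate WT cells the tuft sums were 792 to 972 with GFP, against 1906 to 3392 without. In KO GFP+ cells they were 632 to 701 in perinates and 674 to 1132 in adults, with none of 6 called against WT in adults and 3 of 6 lower in perinates. For perinates against adults in WT GFP- cells, where Olfr920 was higher, 5 of 6 tuft markers were lower, 4 of 6 dendritic cell and macrophage markers were lower, and 4 of 6 cortical epithelium markers were higher and 1 lower. The cortical sums in GFP- cells were 6192 to 6755 in perinates and 4250 to 4592 in adults. In WT GFP+ cells perinates had 4 of 8 fibroblast and endothelium markers higher, and 2 of 6 cortical and 2 of 6 dendritic cell markers lower. The fibroblast and endothelium sums were 4495 to 5535 in perinates and 2944 to 3320 in adults, of which Dcn made up 3265 and 1579 on average. In KO GFP+ cells perinates had 4 of 6 tuft markers lower and 3 of 8 fibroblast and endothelium markers higher, with 2 lower. Marker counts that rest on perinate KO cells use all arrays. Some of these calls did not pass without perinate KO arrays 2 and 3, which leaves array 1 alone in its group.

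Calls among the receptor neighbours of the 13 genes are given beside the shares of all genes and of the receptor family. The 2 nearest measured genes on either side, in the order of the GRCm38.p6 annotation, gave 37 other receptor genes and 13 further genes. When dim probe sets were kept in the fit, 1 of the 37 receptor neighbours was higher and 3 lower in adult KO than WT GFP+ cells. There 18.6% of all genes and 6.33% of the receptor family were called. None of the neighbours was called in perinates (24.4% and 3.02%). For GFP+ against GFP- cells 4 were higher and 1 lower in adults (36.6% and 9.74%), and none was called in perinates (34.1% and 3.21%). The 4 receptor neighbours of Olfr1136, which are Olfr1134, Olfr1135, Olfr1137 and Olfr1138, stayed between 12.5 and 22.5 in every group mean. Among its 10 nearest receptor genes the highest was Olfr1140, at 48.5, which is below the 40th percentile of every array. It was picked by this highest group mean, so its differences between groups are a description. Without the filter, KO minus WT in GFP+ cells was 1.15 ± 0.11 in adults and 0.35 ± 0.11 in perinates. The perinate value was 0.18 without perinate KO arrays 2 and 3. Whether its probe set also reads Olfr1136 was not tested.

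Some neighbours that are not receptors did move. Vwa5a lies next to Olfr920 and averaged 1562 in adult KO GFP+, 2346 in adult WT GFP+ and 970 in adult WT GFP- cells. It fell in KO cells at both ages (adult -0.59 ± 0.11, adjusted p = 0.000687, and perinate -0.56 ± 0.11, adjusted p = 0.00106) and was higher in GFP+ cells (adult 1.28 ± 0.11, adjusted p = 1.25e-07). Its perinate KO value did not pass without KO arrays 2 and 3 (-0.43, adjusted p = 0.103). Fam183b, between Olfr316 and Olfr314, was lower in GFP+ than in GFP- cells of adults (-1.53 ± 0.26, adjusted p = 0.000174), whereas Olfr314 differed by -0.20 ± 0.13 (adjusted p = 0.229). Gabbr1, which encodes a GABA-B receptor subunit and lies near Olfr91, was lower in perinate GFP+ than GFP- cells (-1.58 ± 0.17, adjusted p = 1.43e-06), while Olfr91 differed by 0.13 ± 0.13 (adjusted p = 0.462).

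**Figure D4:**
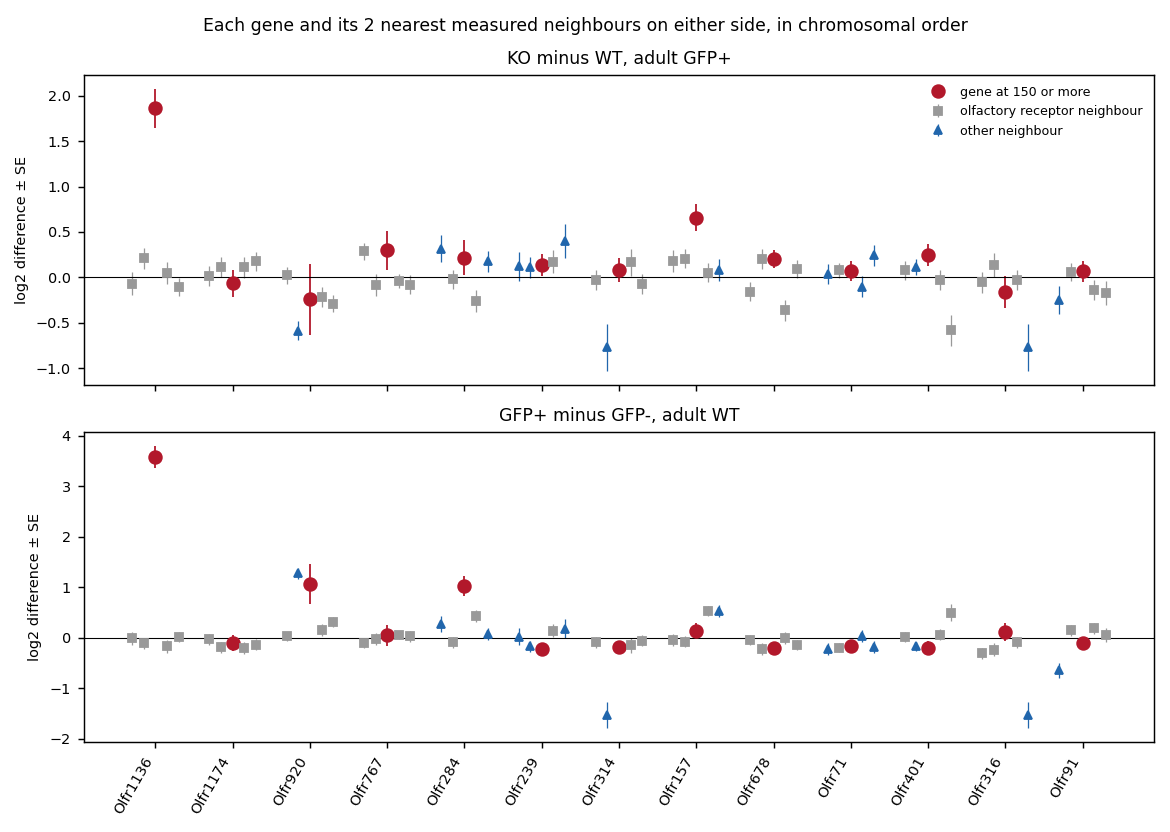
Log2 differences with standard errors of each of the 13 genes (red) and its 2 nearest measured neighbours on either side in chromosomal order (grey, receptors; blue, other genes), for KO minus WT in adult GFP+ cells (top) and GFP+ minus GFP- in adult WT cells (bottom). Olfr1136 stands at 1.86 and 3.58, and none of the receptor neighbours of the 13 genes lies above 0.53 in either panel.

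Of 15 listed olfactory transduction genes 11 were tested. In adult KO against WT GFP+ cells 1 rose and 3 fell, where 19.9% of all genes were called, and in perinates 2 rose and none fell, where 26.5% were called. None was called in perinates without KO arrays 2 and 3. The median log2 difference of the list was 0.02 in adults and 0.05 in perinates, against 0.06 and 0.09 over all genes. Pde1c, a calcium-dependent phosphodiesterase of olfactory cilia, rose in KO cells at both ages (adult 0.55 ± 0.14, adjusted p = 0.00970, and perinate 0.50 ± 0.14, adjusted p = 0.0146), although the perinate value did not pass without KO arrays 2 and 3 (0.50, adjusted p = 0.185). Cnga2, the channel subunit, fell in adult KO cells, with a mean of 174 in KO and 297 in WT (-0.76 ± 0.20, adjusted p = 0.0112), as did Omp, the olfactory marker protein, with 322 in KO and 500 in WT (-0.65 ± 0.13, adjusted p = 0.00174). Gnal read 39.98 to 74.6 and Cnga4, another channel subunit, 36.9 to 49.9 over all 17 arrays.

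In GFP+ against GFP- cells of adults, 4 of the 11 transduction genes were higher and 3 lower, where 44.9% of all genes were called. In perinates 5 were higher and 1 lower, where 43.5% were called. For Cnga2 the adult means were 297 with GFP and 98.0 without (1.59 ± 0.20, adjusted p = 7.43e-06), and the perinate means 191 with GFP and 49.3 without (1.91 ± 0.22, adjusted p = 2.60e-06). Gng13, a G protein gamma subunit that taste and tuft cells also use, was lower in adult GFP+ than GFP- cells, at 199 and 797 (-1.996 ± 0.13, adjusted p = 1.67e-08). Omp was higher in adult GFP+ cells, at 500 against 240 in GFP- cells (1.07 ± 0.13, adjusted p = 6.61e-06).

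Of 14 genes of receptor trafficking and receptor gene choice 8 were tested. In KO against WT GFP+ cells 2 were higher and 1 lower in adults (19.9% of all genes called), and none higher and 3 lower in perinates (26.5%). The 3 that fell in perinates were the transcription factors Ebf3 (-0.39 ± 0.10, adjusted p = 0.00723) and Lhx2 (-0.56 ± 0.12, adjusted p = 0.00197) and the membrane-trafficking gene Reep2 (-0.36 ± 0.11, adjusted p = 0.0271). Without KO arrays 2 and 3 only Lhx2 of these passed (-0.66, adjusted p = 0.0251), while Ebf3 stood at -0.35 (adjusted p = 0.157) and Reep2 at -0.22 (adjusted p = 0.413). Rtp1, a chaperone that carries receptors to the cell surface, read 43.6 to 85.7 over all arrays, and Rtp2 58.7 to 84.2.

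Of 18 markers of the olfactory epithelium 9 were tested. In KO against WT GFP+ cells 3 fell and none rose in adults (19.9% of all genes called). In perinates 4 fell and none rose (26.5%). Omp is in this list and in the transduction list, so its calls are counted in both. In perinates 2 of the 9 fell when KO arrays 2 and 3 were left out. The odorant-binding protein gene Obp2a averaged 28.9 in adult KO and 571 in adult WT GFP+ cells (-4.30 ± 0.17, adjusted p = 1.48e-11), and 28.0 in perinate KO and 349 in perinate WT GFP+ cells (-3.62 ± 0.17, adjusted p = 1.96e-10). The KO signals of Obp2a lay at the low end of the arrays, so these fitted falls are lower bounds of the size. Stoml3, a stomatin-like protein of olfactory cilia, averaged 60.8 in adult KO and 290 in adult WT GFP+ cells (-2.24 ± 0.17, adjusted p = 2.37e-08). In perinates it averaged 43.8 in KO and 270 in WT GFP+ cells (-2.58 ± 0.17, adjusted p = 6.88e-09). Without perinate KO arrays 2 and 3 the perinate values were -3.91 for Obp2a (adjusted p = 8.06e-08) and -2.57 for Stoml3 (adjusted p = 9.17e-06). In GFP+ against GFP- cells, 5 of the 9 were higher and 3 lower in adults (44.9% of all genes called). In perinates 4 were higher and 3 lower (43.5%). Obp2a, Stoml3 and Olfr1136 were all higher in adult GFP+ than GFP- cells, but in the knockout Obp2a and Stoml3 fell while Olfr1136 rose. Other listed markers went the other way with the reporter. In adult WT cells Cyp2g1 averaged 1123 with GFP and 6370 without, and Cbr2 2662 and 4078. Ncam2, an adhesion molecule of olfactory neurons, read 22.3 to 34.2 on all arrays.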

How the data were processed

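The authors deposited a table of linear intensities of 24922 probe sets on 17 arrays, made with Affymetrix Power Tools and RMA per the submitters' processing notes, which give no versions here. Of the probe sets, 21425 carry a single gene symbol in the platform annotation, 1399 several and 2098 none, and only the first kind was named. The deposited intensities were taken to log2 with no pseudocount. Dim probe sets were removed before testing: 2 or more arrays had to exceed their own 40th percentile, and 13842 genes did. All 17 arrays entered 1 linear model with a mean for each of the 6 groups, fitted with limma 3.58.1 in R 4.3.3, with empirical Bayes and Benjamini-Hochberg adjustment over all genes tested. Adjusted p-values and standard errors come from that model, and a call is an adjusted p under 0.05. KO was compared with WT, GFP+ with GFP- and perinates with adults, with the difference of the first 2 between ages, 9 comparisons in all. Neighbour genes and the whole receptor family were tested in the same fit without the filter.

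The genes and gene lists were chosen with earlier results of these data known. The genes named are the 13 receptors, the 3 nearest the threshold on either side, their neighbours, and called members of the lists, with further list members given by their range. Equally numbered adult WT GFP+ and GFP- samples deviated together (r = 0.503, 0.443 and 0.188 for numbers 6, 7 and 8), against -0.439 to 0.0971 for unequal numbers. The labels do not state a pairing, and the main model does not use one. With data simulated for KO against WT in adults, 82.4% of 68 genes changed 2-fold and 52.2% of 69 changed 1.5-fold were called, among 13842 genes. A far smaller share of genes was changed there than the 19.9% called in the data, so these rates do not give the sensitivity in the data. Alternatives covered the filter, the normalization, array weights, the samples in the fit, the choice of receptor genes, single arrays left out and the replicate block. The number of arrays limits the precision.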

Additional observations from a re-analysis of the deposited data

Results flagged for a closer look

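Olfr1136 was singled out because its GFP+ minus GFP- effect differed between the ages in a test of that difference, with a perinate effect minus adult effect of -1.40 ± 0.32 on the log2 scale (adjusted p = 0.00561). The effect was 2.19 in perinates and 3.58 in adults. Over 17 alternatives the difference ran from -1.53 to -1.12, and its highest adjusted p was 0.0215. The GFP- arrays lay between 25.6 and 32.9 in adults and at 26.7 and 27.2 in perinates, a little above the median receptor gene of an array at both ages. The fitted reporter effects are therefore lower bounds, and their difference does not give the difference in size of the reporter effect.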

How the results depend on the processing

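Of the 117 tests of a receptor gene in a comparison, 21 were calls, of which 14 were kept under each of the 11 to 17 alternatives that gave a value for them and 7 were lost under at least 1, while none of the 21 reversed. Olfr157 is not tested with the 60th percentile filter. A further 17 tests passed only under an alternative. The calls of Olfr1136 were all kept. Among the kept calls are those of Olfr1136 and Olfr284 for the reporter and of Olfr157 for KO in adults. The groups compared there brought these genes over the threshold, so that these calls were kept is no support for them. For KO against WT in adults the count of receptor genes called fell to 1 with a 60th percentile filter, which tests 6 of them, with the 10 genes chosen by their mean over 17 arrays, and with the 7 genes at 200 or more. For KO against WT in perinates it was 2 without perinate KO arrays 2 and 3. For perinates against adults it was 2 in WT GFP+ cells with the 60th percentile filter and with the genes at 200 or more, and 2 in WT GFP- cells with quantile normalization and with median centring. The cause was not tested, beyond the fewer genes that enter with the stricter filter or choice of genes.

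Leaving out 1 array at a time gave 1 to 6 calls for KO against WT in perinates, with 1 without WT GFP+ array 5 and 2 without KO array 3, and 2 in every fit for adults. It gave 0 to 1 for the difference between those effects, where 1 gene (Olfr767) was called without perinate KO array 2. GFP+ against GFP- cells gave 2 to 4 in adults, 2 to 3 in perinates and 1 to 2 for the difference, with 2 without perinate WT GFP- array 2. Perinates against adults gave 3 to 4 in WT GFP+, 2 to 4 in KO GFP+ and 1 to 3 in WT GFP- cells, with 3 without adult WT GFP- array 6.

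With the replicate block, adult GFP+ against GFP- cells gave 3 higher receptor genes, as without it, and the block changed no call of a receptor gene there. For sample numbers shared between ages r was 0.0486, 0.039 and 0.0589 in KO and 0.033 and 0.189 in WT GFP+ cells, and no pairing is labelled. A block on them gave 3 calls in each comparison, and Olfr678 did not pass in WT GFP+ cells (adjusted p = 0.110). Genes near the bottom of the array limit what their probe sets can show, and the perinate KO calls of Olfr920, Olfr284 and Olfr767 were each lost when single arrays were left out, with their signs kept.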

Other observations

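Probe sets annotated to several symbols, with a receptor among them, were outside the choice of genes, and 6 of 96 of them reached 150 in at least 1 group. The brightest of the 6, at 304 in adult WT GFP+ cells, carries a receptor symbol beside that of a gene outside the family. No single gene is named from them. A probe set shared by 6 symbols on the array averaged 65.9 in adult KO GFP+, 252 in adult WT GFP+ and 117 in adult WT GFP- cells. In perinates it averaged 67.2 in KO GFP+, 159 in WT GFP+ and 78.8 in WT GFP- cells. A second probe set carries the same 6 symbols. Another, shared by 2 symbols, averaged 123 in adult KO GFP+, 214 in adult WT GFP+ and 95.2 in adult WT GFP- cells. Its perinate means were 66.1 in KO GFP+, 74.2 in WT GFP+ and 49.6 in WT GFP- cells. These sets reached 150 only in WT GFP+ groups, which brought them in, so their group means are a description. The remaining sets reached 150 in other groups as well, with group means of 138 to 167, 189 to 304 and 130 to 171.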
